A study of Homo sapiens with 12 samples.

Results

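The response to low oxygen that was left when ARNT had been knocked down was measured in AsPC-1, an established human pancreatic cancer cell line, by comparing 3 hypoxia siARNT libraries with 3 normoxia siARNT libraries, 6 of the 12 libraries of the study. The 6 were chosen by their labels (siRNA and oxygen) and not by any measured value. Per the labels, wells received an siRNA against ARNT with Lipofectamine RNAiMAX, were divided on the next day, and were kept at 1% O2 for 24 h (hypoxia) or at 21% O2 (normoxia), with RNA harvested 48 h after transfection. The other 6 libraries, used here for comparison, came from wells that received a scrambled siRNA (siControl) and otherwise the same handling. All libraries come from 1 cell line, and the replicates A, B and C are named as samples without a statement of how separate the cultures were, so p-values measure the spread between these samples.

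Hypoxia-inducible factors (HIFs) are pairs of an oxygen-labile alpha subunit (HIF1A, EPAS1) and the constant subunit ARNT, and in low oxygen they switch on genes of glycolysis, angiogenesis, oxygen sensing and mitophagy. The alpha subunits are marked for destruction by the prolyl hydroxylases EGLN1, EGLN2 and EGLN3 through VHL. A second partner of ARNT is AHR, the aryl hydrocarbon receptor, which drives CYP1A1, CYP1B1, TIPARP and its own repressor AHRR. Metallothioneins are small metal-binding proteins whose genes follow the metal-sensing factor MTF1.

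ARNT stood at 13.3, 12.8 and 14.0 CPM (read counts scaled to the library's size) in normoxia siARNT and at 16.0, 15.8 and 14.1 CPM in hypoxia siARNT, against 60.7 to 72.2 CPM in the 6 siControl libraries, so the knockdown was partial and every siARNT library matched its label. Gene reads per library ran from 38.53 to 84.34 M. In the siARNT arm they were 84.34, 57.96 and 50.23 M in normoxia and 53.53, 41.33 and 38.53 M in hypoxia, so each hypoxia library except A was shallower than all 3 normoxia libraries. The epithelial keratin and pancreatic cancer markers were expressed (10 of 10 tested). Of the fibroblast markers 5 of 8 had enough reads to be tested (COL3A1, DCN, LUM, PDGFRB and ACTA2). Of the blood and endothelial markers 3 of 9 did (CD14, CD68 and VWF), and PECAM1 was not matched to a gene ID, so its reads are not known. Among the markers not tested, COL1A1, COL1A2, PTPRC and CD3E had at most 8, 10, 4 and 0 reads in a library. Normoxia siARNT B and hypoxia siARNT C stood apart from their replicates in how the read level depended on the GC content of genes. Their slopes were 0.43 and 0.244 log2 units per 10% GC, against -0.176 to 0.022 in the other 4 siARNT libraries. The total counts, several list medians and the calls of many named genes are also given without each of them.

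Of 16999 genes tested with edgeR's quasi-likelihood test and Benjamini-Hochberg adjustment (the adjusted p used throughout, called under 0.05), 696 (4.09%) were called between hypoxia and normoxia in siARNT cells. Of these, 375 (2.21% of genes tested) rose and 321 (1.89%) fell. In siControl cells 4299 genes (25.3%) were called by the same test. The change differed between the arms for 797 genes (4.69%), the interaction in which the change in siControl is subtracted from that in siARNT. In the siARNT arm 3779 genes (22.2%) had no overlap between the 3 hypoxia and the 3 normoxia libraries. Pseudogenes made up 99 of the 375 rises and 5 of the 321 falls and are set apart at the end, leaving 592 other genes, 276 up and 316 down. Of these other genes, 30 rose and 18 fell by at least 1 log2 unit.

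The count depended on single libraries and on GC. Without normoxia siARNT A, B or C it was 178, 396 and 222, without hypoxia siARNT A, B or C it was 174, 129 and 454, and without 1 siControl library, which enters through the spread, the scaling and the filter on low counts, it ran from 317 to 707 (317, 327 and 328 without normoxia A, B and C, and 428, 707 and 697 without hypoxia A, B and C). With a per-library GC correction 3657 genes (21.5%) were called, 676 of the 696 in the same direction among them. Scaling by the total count instead of TMM gave 634 rises and 330 falls, 65.8% rises against 53.9%, and testing only genes that averaged 5 CPM or more gave 640 and 224, 74.1% rises.

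Most of the non-pseudogene response was shared in direction with siControl cells. Of the 592 called genes, 420 (70.9%) were called in the same direction in siControl cells, 202 up and 218 down, and they were 10.0% of the 4182 non-pseudogene calls there. For 307 of the 420 the estimated change was smaller in siARNT, and over the 420 the median ratio to the siControl change was 0.682. The interaction was called for 88 of the 420, and for the others a difference in size was not called. A further 20 genes were called in both arms in opposite directions, all 20 with the interaction called, and 152 were called in siARNT alone, of which 113 had the same sign in siControl and 33 a called interaction. The arms share no libraries. In the plot of both changes for every called gene, the non-pseudogenes run along both arms' shared direction and the pseudogenes stand as a column above 0.

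**Figure D1:**
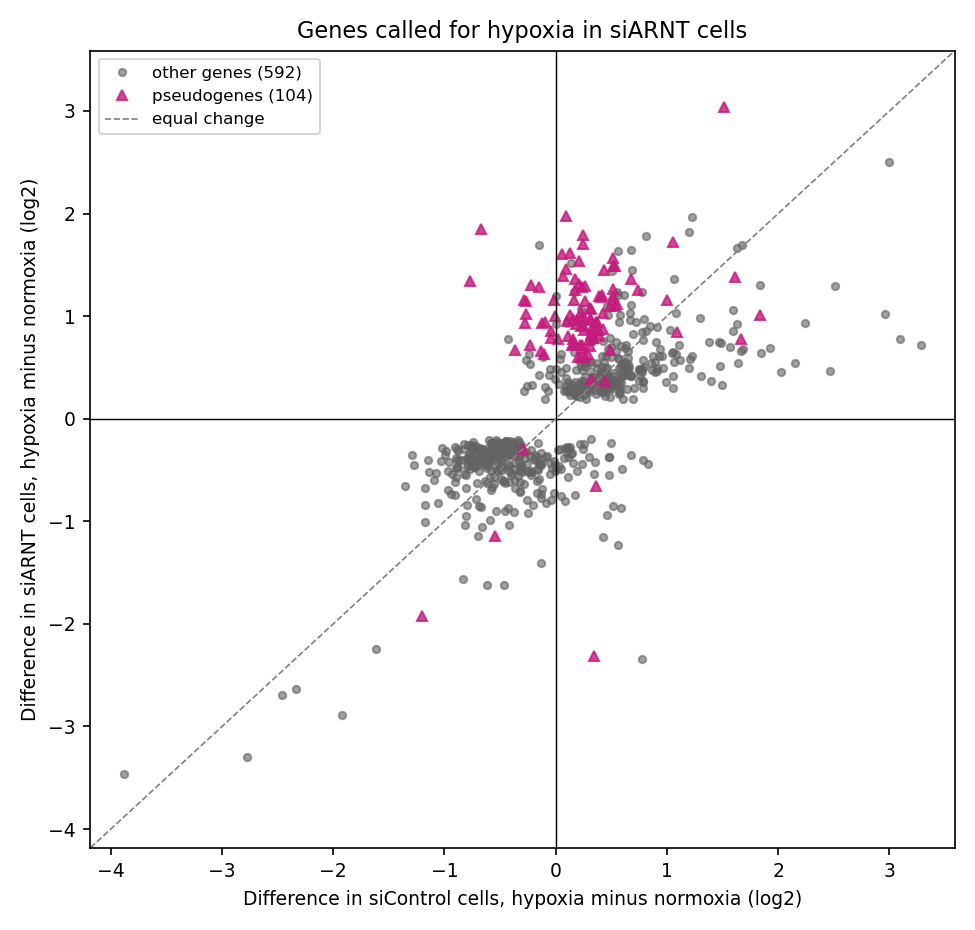
Difference between hypoxia and normoxia (log2) in siARNT cells (vertical axis) against that in siControl cells (horizontal axis) for the 696 genes called in siARNT cells, with 104 pseudogenes as triangles and 592 other genes as circles. Of the other genes 420 were called in the same direction in both arms, while 99 of the 104 pseudogenes lie above 0 on the vertical axis.

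Fewer HIF targets rose in hypoxia in siARNT cells than in siControl cells. Of 44 targets tested (48 in the list), 8 rose in siARNT cells and 0 fell, where 2.21% of all genes tested rose and 1.89% fell. The median difference was 0.14 log2 units against -0.039 over all genes tested. In siControl cells 42 rose and 1 fell, with a median of 1.42, where 1772 of 16999 genes tested rose and 2527 fell. The 8 were P4HA1, NDRG1, KDM3A, EGLN3, ENO2, LDHA, BNIP3L and ANKRD37. Of the 44, 33 lay above 0, against 43.5% of all genes tested. With the GC correction, which called 21.5% of all genes tested (1858 rises and 1799 falls), 23 rose and 1 fell. Without normoxia siARNT B 11 rose with a median of 0.244, and without hypoxia siARNT C 9 rose with a median of 0.121. BNIP3, a mitophagy receptor, and VLDLR, LOX and STC2 were not tested, with at most 1, 0, 3 and 2 reads in a library.

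The promoters of ANKRD37 and P4HA1 are shown because ANKRD37 had the largest rise among the called targets and P4HA1 was called under all 24 alternatives. RefSeq promoters (GRCh38.p14, the 250 bases before the start) were matched by symbol for 38 of the 44 targets and for 6 of the 8 called ones, all except NDRG1 and BNIP3L. Capitals mark the HIF core, ACGTG or GCGTG, on either strand. GCGTG is also the core of the AHR motif. ANKRD37 lies at chr4:185396591-185396840 on the plus strand and holds 3 matches. P4HA1 lies at chr10:73096867-73097116 on the minus strand and holds 1.
ANKRD37: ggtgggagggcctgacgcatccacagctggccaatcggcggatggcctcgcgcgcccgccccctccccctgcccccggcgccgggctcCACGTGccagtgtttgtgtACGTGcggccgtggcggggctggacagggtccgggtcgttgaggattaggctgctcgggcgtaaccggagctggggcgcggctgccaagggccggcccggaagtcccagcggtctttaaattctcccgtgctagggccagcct
P4HA1: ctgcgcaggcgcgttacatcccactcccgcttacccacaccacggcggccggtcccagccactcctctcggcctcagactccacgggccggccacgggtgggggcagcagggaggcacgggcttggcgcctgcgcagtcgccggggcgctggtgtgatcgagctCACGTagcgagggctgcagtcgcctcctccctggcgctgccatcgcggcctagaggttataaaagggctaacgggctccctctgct
The core was found in 28 of the 38 HIF target promoters (73.7%), in 5 of the 6 called ones (EGLN3 had none in this window) and in 43.1% of the 27305 promoters of the table.

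ANKRD37, an ankyrin-repeat protein gene, stood at 0.327, 0.465 and 0.491 CPM in normoxia and at 2.74, 2.39 and 2.00 CPM in hypoxia. The lowest hypoxia library was thus above the highest normoxia one. The difference was 2.50 log2 units (SE 0.18, adjusted p 0.00011), against 3.00 (SE 0.17) in siControl cells, and the interaction was not called (-0.50, SE 0.24, adjusted p 0.264). P4HA1, the alpha subunit of collagen prolyl 4-hydroxylase, rose from 99.6, 86.1 and 97.9 CPM to 205, 174 and 163 CPM, a difference of 0.94 (SE 0.09, adjusted p 0.000939) against 2.24 in siControl cells. All 3 hypoxia libraries lay above the normoxia range, and P4HA1 was called under all 24 alternatives.

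The oxygen sensor EGLN3 rose from 12.4, 11.4 and 13.1 CPM to 22.4, 18.9 and 19.0 CPM (0.71, SE 0.08, adjusted p 0.0018), against 3.29 in siControl cells, where it reached 114 to 128 CPM. NDRG1, a stress-response gene, rose from 108, 137 and 108 CPM to 187, 188 and 228 CPM (0.78, SE 0.11, adjusted p 0.00422), against 3.09. KDM3A, a JmjC histone H3 lysine demethylase, rose from 118, 106 and 111 CPM to 208, 182 and 170 CPM (0.74, SE 0.08, adjusted p 0.00168), against 1.49. In all 3 genes the groups did not overlap and the rise was smaller than in siControl cells (interaction adjusted p 8.09e-07, 1.48e-05 and 0.00436).

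BNIP3L, a mitophagy receptor, rose from 168, 150 and 179 CPM to 253, 236 and 233 CPM (0.54, SE 0.08, adjusted p 0.00533). ENO2, the neuronal form of the glycolytic enzyme enolase, was low and rose from 1.65, 1.96 and 1.73 CPM to 2.91, 3.58 and 4.36 CPM (1.02, SE 0.15, adjusted p 0.00555). LDHA, the lactate dehydrogenase subunit, was the most abundant of the 8 and rose from 2140, 1950 and 2060 CPM to 2940, 2550 and 2450 CPM (0.37, SE 0.07, adjusted p 0.0192). These 3 also had no overlap between groups and a smaller rise than in siControl cells (1.64, 2.96 and 1.39, interaction adjusted p 0.000235, 0.000419 and 0.000192). LDHA lost its call without normoxia siARNT C, hypoxia siARNT A or hypoxia siARNT B (adjusted p up to 0.0606), while the other 7 stayed called without any 1 library.

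**Figure D2:**
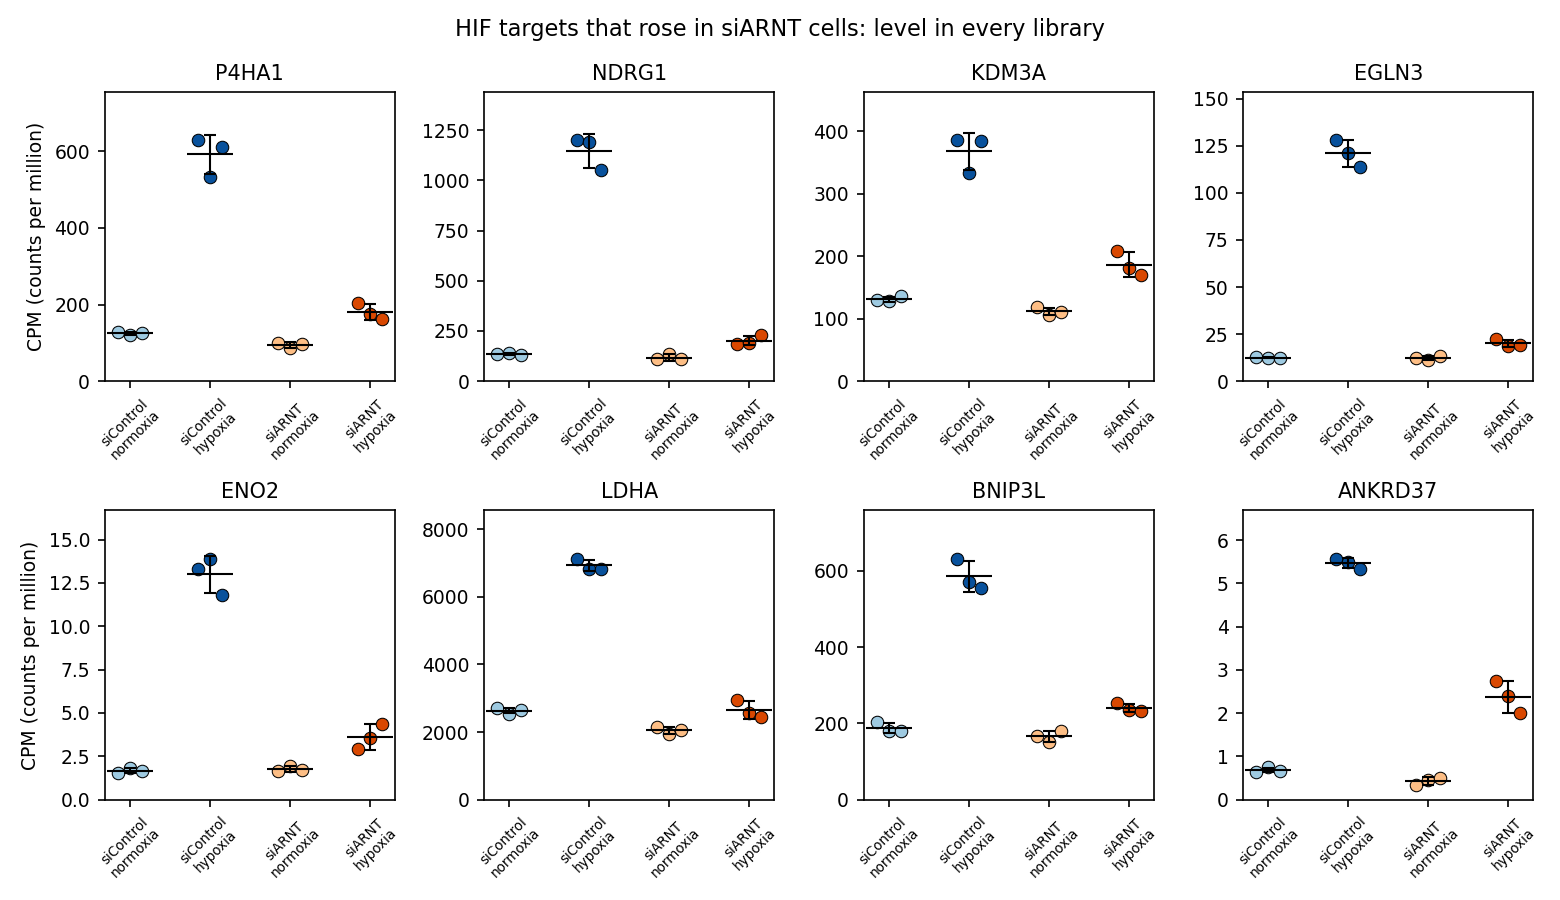
Level (CPM, linear axes from 0) of the 8 HIF targets that rose in siARNT cells, with 1 point per library, bars for the mean and whiskers for the SD (n = 3). In every panel the 3 siARNT hypoxia points lie above the 3 siARNT normoxia points and below the siControl hypoxia points.

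Other targets that rose strongly in siControl cells showed no call. PLOD2, a collagen lysyl hydroxylase, had a difference of 0.13 (SE 0.39, adjusted p 0.907) against 5.60 in siControl cells, and its 6 siARNT libraries held 0.0689 to 0.151 CPM. CA9, the membrane carbonic anhydrase, stood at 20.3, 28.6 and 18.3 CPM in normoxia and at 23.5, 24.9 and 31.1 CPM in hypoxia, so its groups overlapped (0.24, SE 0.16, adjusted p 0.414, against 3.27). PDK1, a kinase that inhibits pyruvate dehydrogenase, differed by 0.04 (SE 0.07, adjusted p 0.802) against 1.38, and the glycolytic kinase PGK1 by 0.11 (SE 0.06, adjusted p 0.333) against 1.58. For these 4 the interaction was called (adjusted p 0.000235, 3.42e-05, 2.44e-05 and 4.59e-06). VEGFA, the angiogenic growth factor, stood at 44.2, 54.6 and 44.0 CPM in normoxia and at 56.4, 62.8 and 69.5 CPM in hypoxia, without overlap, and did not pass the test (0.40, SE 0.14, adjusted p 0.116). CA12 had the only interaction above 0 in the list (0.63, adjusted p 0.0118), with a difference of 0.29 in siARNT cells (adjusted p 0.0687) and -0.34 in siControl cells.

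**Figure D3:**
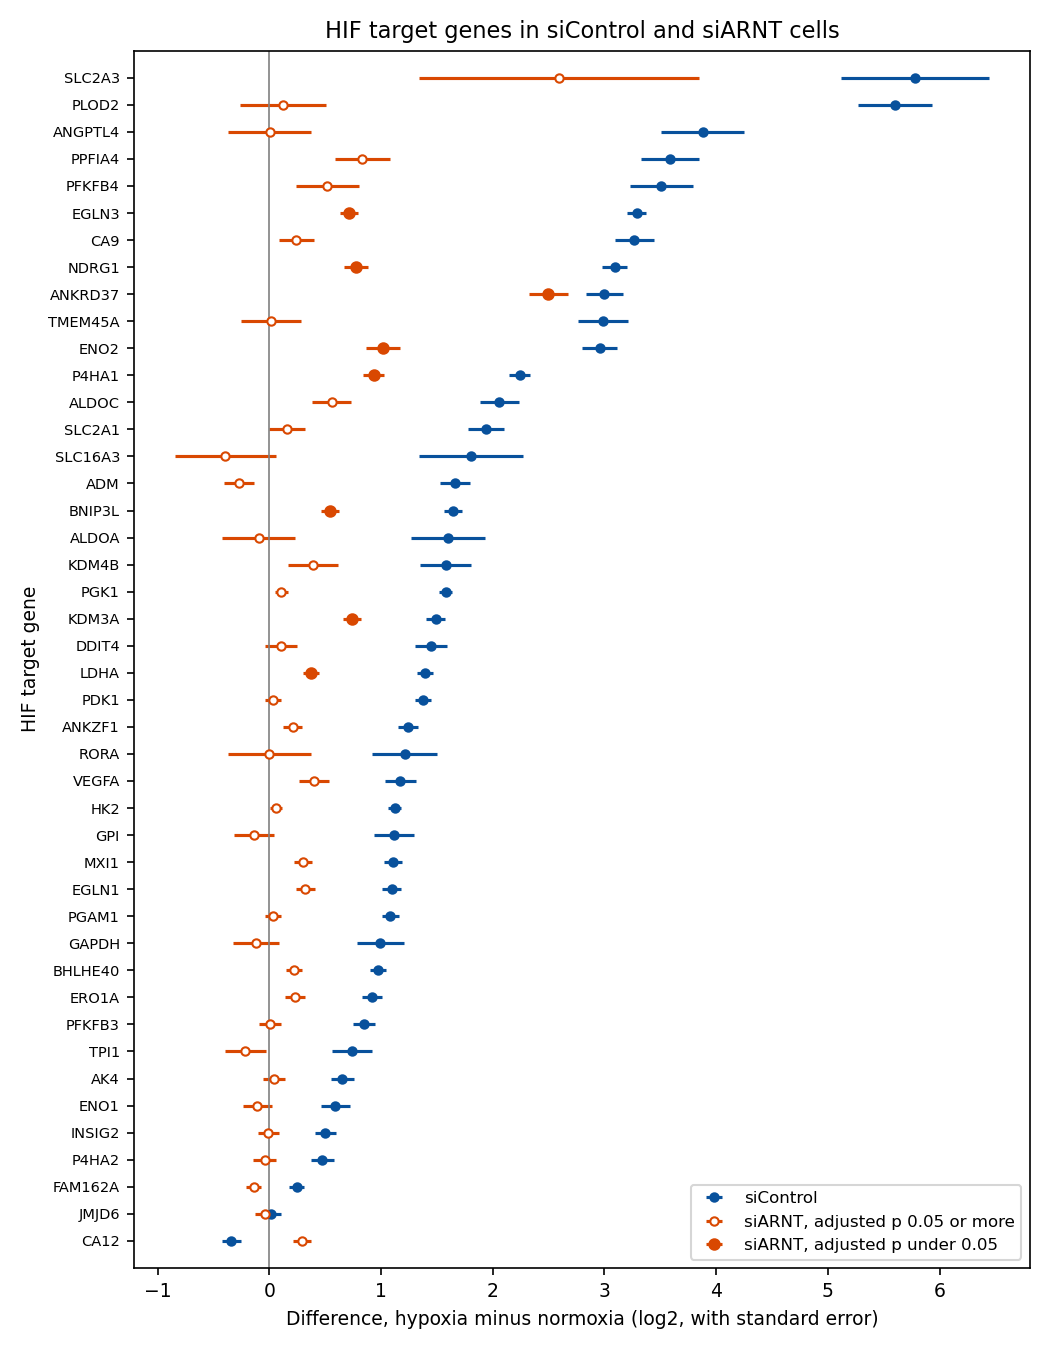
Difference between hypoxia and normoxia (log2, with standard error) for the 44 HIF targets tested, in siControl cells (blue) and siARNT cells (orange, filled where the adjusted p was under 0.05), ordered by the siControl value. The siControl median is 1.42 and the siARNT median 0.14, and the 8 filled points are all above 0.

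Among 11 tested HIF pathway components (13 in the list), EGLN3 was the 1 that rose and none fell. Over all genes tested 2.21% rose and 1.89% fell. HIF1A stood at 87.7, 75.6 and 92.4 CPM in normoxia and at 114, 95.8 and 82.5 CPM in hypoxia (0.19, SE 0.11, adjusted p 0.341). EPAS1, the other main alpha subunit, differed by 0.05 (SE 0.07, adjusted p 0.688), and ARNT itself by 0.20 (SE 0.07, adjusted p 0.129). The prolyl hydroxylase EGLN1 reached 0.32 (SE 0.09, adjusted p 0.0621) against 1.10 in siControl cells, with the interaction called (adjusted p 0.0054). CITED2, which competes with HIF alpha for its coactivators, differed by -0.18 (adjusted p 0.198) against 0.49 in siControl cells (interaction adjusted p 0.0051). AHR and BMAL1, which share the bHLH-PAS domain with ARNT, differed by 0.26 and 0.27 (adjusted p 0.156 and 0.0728), and VHL, EGLN2 and HIF1AN by -0.03, 0.08 and 0.08 without a call.

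The metallothioneins fell in both arms. Of 10 genes tested in the list of metallothioneins and zinc genes, 6 fell and 0 rose in siARNT cells. Over all genes tested 1.89% fell there, and the list median was -2.44 against -0.039 over all genes. In siControl cells 7 of the 10 fell, with a median of -2.13, where 2527 of 16999 genes tested fell. The 6 were MT2A, MT1E, MT1X, MT1F, MT1M and MT1G. MT1A, which had 17, 9 and 15 reads in normoxia and 3, 2 and 2 in hypoxia, missed the call (adjusted p 0.0534). MTF1, the metal-sensing transcription factor, and the zinc transporters SLC30A1 and SLC39A10 differed by 0.07, -0.05 and -0.02 with adjusted p of 0.519 or more.

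RefSeq promoters were matched for MT2A and MT1X among the 6, and both are shown because of the metal-response motifs in them. Capitals mark the core TGCACNC or TGCGCNC on either strand. MT2A lies at chr16:56608334-56608583 and holds 7 matches, and MT1X at chr16:56682220-56682469 with 4, both on the plus strand.
MT2A: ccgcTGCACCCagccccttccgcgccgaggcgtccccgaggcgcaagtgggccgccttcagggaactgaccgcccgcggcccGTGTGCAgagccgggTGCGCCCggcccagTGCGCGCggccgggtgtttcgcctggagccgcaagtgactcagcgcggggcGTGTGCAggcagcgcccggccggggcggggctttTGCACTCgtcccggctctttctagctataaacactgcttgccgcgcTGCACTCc
MT1X: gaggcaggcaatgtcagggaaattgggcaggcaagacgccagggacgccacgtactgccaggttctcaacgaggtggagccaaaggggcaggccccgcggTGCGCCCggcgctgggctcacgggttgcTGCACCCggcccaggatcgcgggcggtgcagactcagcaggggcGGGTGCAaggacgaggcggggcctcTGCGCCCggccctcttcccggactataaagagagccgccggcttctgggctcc
The core was present in 24.7% of all promoters of this length and in 3 of the 5 matched promoters of the list.

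MT2A stood at 6.75, 16.7 and 7.26 CPM in normoxia siARNT and at 1.34, 1.38 and 2.04 CPM in hypoxia siARNT. The difference was -2.69 (SE 0.34, adjusted p 0.00336), against -2.46 (SE 0.36) in siControl cells, where it went from 3.73, 4.62 and 4.03 CPM to 0.649, 0.924 and 0.687 CPM. MT1E fell from 15.4, 24.2 and 16.0 CPM to 3.68, 3.68 and 4.41 CPM (-2.24, SE 0.19, adjusted p 0.000345), and MT1X from 2.85, 5.72 and 2.96 CPM to 0.453, 0.726 and 0.682 CPM (-2.64, SE 0.30, adjusted p 0.00185). In each of the 3 the normoxia B library was the highest. Their groups did not overlap, which for MT2A and MT1E was also a condition of the rule for the largest falls.

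MT1F, MT1M and MT1G fell as well, with log2 differences of -2.89, -3.30 and -3.47 (adjusted p 0.000939, 0.00011 and 0.00138), from levels under 4 CPM. None of the 6 had a called interaction (adjusted p 0.207 or more). The differences between arms ran from -0.98 for MT1F to -0.23 for MT2A in 5 of them, and are not given for MT1G, whose hypoxia siControl libraries held 3 reads or fewer. Without normoxia siARNT B the differences were -2.14 for MT2A, -2.00 for MT1E and -3.08 for MT1M, and all 6 stayed called without any 1 library.

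Some AHR targets fell in siARNT cells. Of 9 tested (11 in the list), 5 fell and 0 rose, where 1.89% of all genes tested fell and 2.21% rose. Their median was -0.49, against -0.039 over all genes tested. In siControl cells 4 rose and 0 fell, with a median of 0.42, where 1772 of 16999 genes tested rose. The 5 were CYP1B1, CYP1A1, AHRR, TIPARP and ALDH1A3, and for all 5 the interaction was called (adjusted p 0.000235, 0.00164, 0.000335, 0.00399 and 0.0404). ALDH3A1 and SLC7A5 had no overlap between groups and differed by -0.93 and -0.70 without a call (adjusted p 0.103 and 0.0997), and NQO1 and UGT1A6 differed by -0.01 and 0.04.

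CYP1B1, a cytochrome P450 induced by AHR, stood at 3.78, 3.46 and 4.34 CPM in normoxia siARNT and at 1.78, 1.73 and 1.68 CPM in hypoxia siARNT (-1.15, SE 0.12, adjusted p 0.00159). In siControl cells it went from 51.6, 43.4 and 46.2 CPM to 63.5, 70.7 and 55.8 CPM (0.43, SE 0.10). Both siARNT groups thus lay below all siControl libraries, and the direction with oxygen was opposite. AHRR, the AHR repressor, fell from 14.0, 17.5 and 14.9 CPM to 11.0, 10.6 and 11.5 CPM (-0.49, SE 0.08, adjusted p 0.0106) and rose by 0.59 in siControl cells. TIPARP, an ADP-ribosyltransferase that dampens AHR, fell from 60.7, 54.2 and 62.1 CPM to 50.7, 45.8 and 40.0 CPM (-0.37, SE 0.09, adjusted p 0.0452) and rose by 0.47 in siControl cells. ALDH1A3, a retinaldehyde dehydrogenase, fell from 519, 520 and 513 CPM to 388, 394 and 412 CPM (-0.38, SE 0.05, adjusted p 0.00385), with -0.08 (adjusted p 0.26) in siControl cells.

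CYP1A1 had 16, 10 and 5 reads in normoxia siARNT and 1, 1 and 2 in hypoxia siARNT, a depth-scaled ratio of 0.186 with an exact 95% interval of 0.0478 to 0.527 that covers counting error only. CYP1B1 and ALDH1A3 stayed called without any 1 library. AHRR lost its call without hypoxia siARNT B, CYP1A1 without normoxia siARNT A or hypoxia siARNT A or B, and TIPARP without each of 11 of the 12 libraries, normoxia siARNT B being the exception, with adjusted p up to 0.0632, 0.103 and 0.131. When the transfected well entered as a block, 2 of the 5 were called. With the GC correction, which called 21.5% of all genes tested, 7 of the 9 AHR targets fell and 0 rose. The list median was -0.385 without normoxia siARNT B and -0.522 without hypoxia siARNT C. With the 6 siARNT libraries alone edgeR called 0 of the 8 AHR targets then tested, and 6 had an unadjusted p under 0.05. The 5 calls thus depended on having the siControl libraries in the fit.

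**Figure D4:**
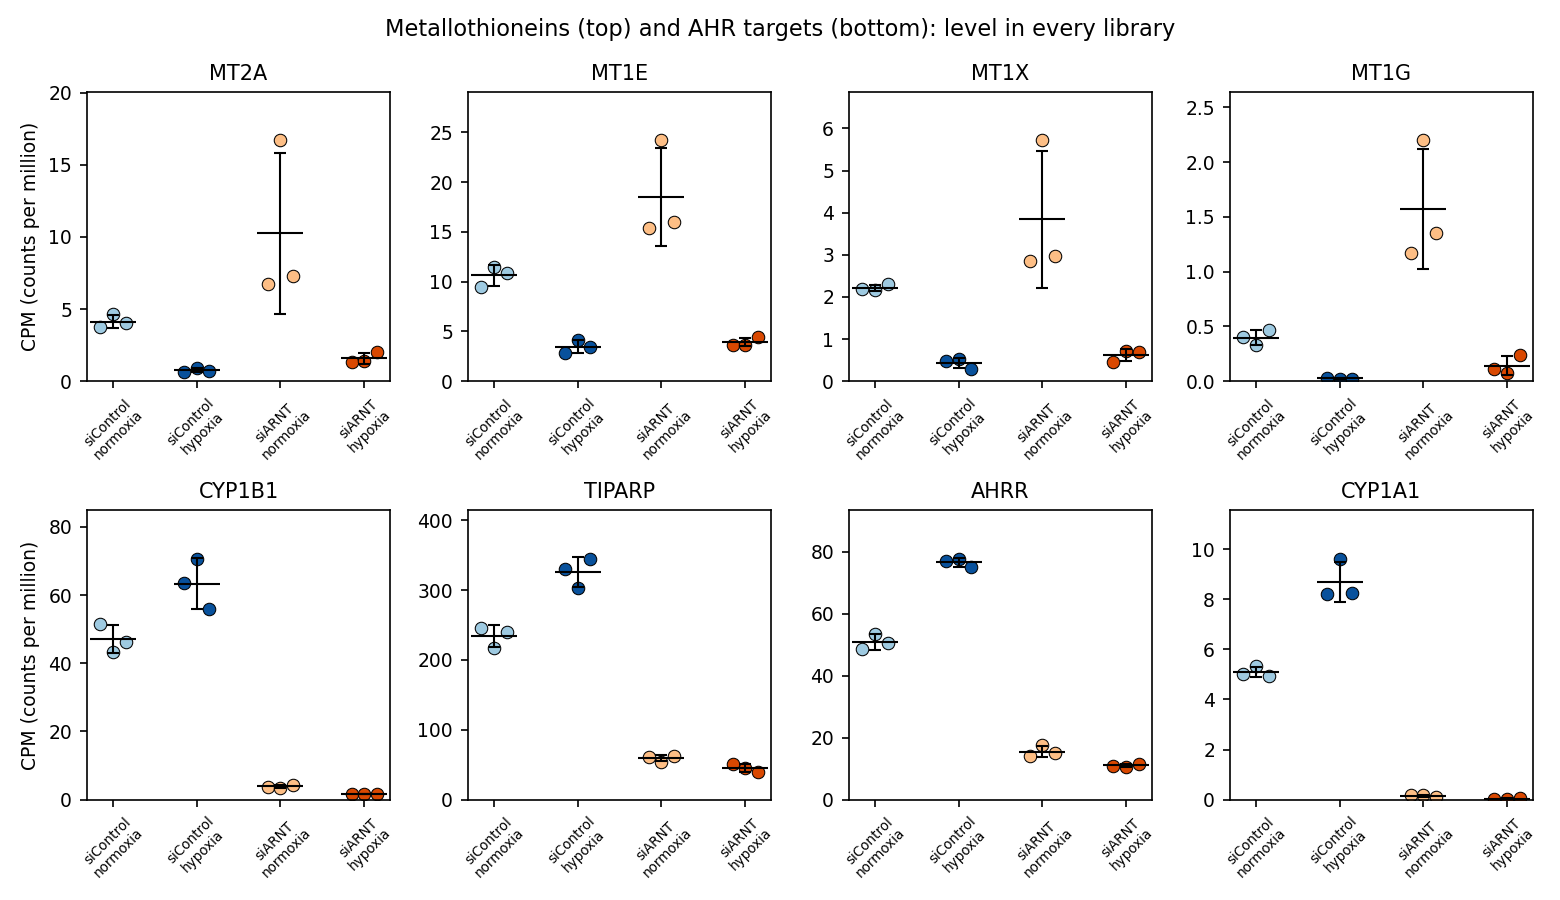
Level (CPM, linear axes from 0) of 4 metallothioneins (top) and 4 AHR targets (bottom) in every library, with the mean and SD (n = 3). The metallothioneins drop from normoxia to hypoxia in both arms, and the AHR targets go up in siControl cells and down in siARNT cells.

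The 20 genes called in opposite directions comprised 18 that fell in siARNT and rose in siControl cells and 2 that did the reverse. Besides the AHR targets CYP1B1, CYP1A1, AHRR and TIPARP, the 18 held IGFBP3, which binds insulin-like growth factors, PLIN2, a lipid droplet coat protein, and TNFAIP3, a brake on NF-kB. They also held HAS3, a hyaluronan synthase, TSC22D3, a glucocorticoid-induced gene, DGKA, AMPD3, IL2RG, FAM83A, TMEM45B, ARL10, PRR15, the non-coding LINC01940 and 1 gene without a symbol in the annotation used. With the GC correction PRR15 was no longer called (-0.07 against -0.25, adjusted p 0.827), and the other 19 stayed called in the same direction.

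IGFBP3 fell from 1200, 1330 and 1230 CPM to 925, 947 and 982 CPM in siARNT cells (-0.40, SE 0.06, adjusted p 0.0044) and rose from 2030, 2040 and 1940 to 3590, 3380 and 3400 CPM in siControl cells. PLIN2 fell from 20.4, 20.8 and 19.1 CPM to 15.6, 14.1 and 14.8 CPM (-0.44, SE 0.07, adjusted p 0.00729) and rose from 15.1, 15.4 and 15.0 to 27.4, 27.6 and 25.6 CPM in siControl cells. The groups of both genes were separate in each arm. The 2 genes of the reverse kind were NPAS2, a clock factor that can pair with BMAL1, and EPB41, a membrane skeleton protein. NPAS2 rose from 113, 122 and 106 CPM to 146, 139 and 140 CPM (0.32, SE 0.06, adjusted p 0.02) and fell by 0.26 in siControl cells. EPB41 rose by 0.27 (adjusted p 0.0488) and fell by 0.29. CYP1B1, IGFBP3, FAM83A and the gene without a symbol stayed called without any 1 library, and the other 16 of the 20 lost their call at least without hypoxia siARNT B. TNFAIP3 and DGKA lost it without each of the 12 libraries, and PLIN2 and AHRR without hypoxia siARNT B only (adjusted p 0.0551 and 0.0632).

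DNA replication genes fell less than in siControl cells. Of 23 tested, 6 fell and 0 rose, with a median of -0.26, against 19 falls and a median of -0.65 in siControl cells. Over all genes tested 1.89% fell in siARNT cells, and 2527 of 16999 fell in siControl cells. For 14 of the 23 the interaction was called above 0. The 6 were GINS1, PCNA, MCM3, MCM4, MCM6 and CCND1. GINS1, a subunit of the replicative helicase, fell from 55.7, 50.9 and 57.1 CPM to 40.5, 41.5 and 41.6 CPM (-0.41, SE 0.06, adjusted p 0.00473) against -0.79 in siControl cells. PCNA, the sliding clamp, fell from 209, 188 and 209 CPM to 178, 159 and 151 CPM (-0.31, SE 0.07, adjusted p 0.0329) against -0.88. TYMS, thymidylate synthase, and RRM2, a ribonucleotide reductase subunit, differed by -0.04 and 0.02 without a call, against -0.59 and -0.49. With the well as a block 1 of the 6 was called, and with the 6 siARNT libraries alone edgeR called 0 (9 at an unadjusted p under 0.05). With the GC correction, which called 21.5% of all genes tested, 12 of the 23 fell and 0 rose, with a median of -0.179. The median was -0.17 without normoxia siARNT B and -0.251 without hypoxia siARNT C. GINS1 stayed called without any 1 library, and the other 5 lost their calls in 8 to 11 of the 12 omissions (all 5 without normoxia siARNT A or C or hypoxia siARNT B, with adjusted p up to 0.172). Among 21 mitotic genes BIRC5, the survivin gene, and BUB1, a spindle checkpoint kinase, fell (-0.28 and -0.34, adjusted p 0.0337 and 0.0461), with a list median of -0.12 against -0.39 in siControl cells, and both lost the call in 9 or 10 of the 12 omissions (normoxia siARNT A and C and all 3 hypoxia siARNT libraries among them, adjusted p up to 0.146).

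A few amino acid genes of the integrated stress response fell. Of 22 ATF4 targets tested, 3 fell and 0 rose, beside falls in 1.89% of all genes tested. The list median was -0.22 against -0.13 in siControl cells, where 6 fell and 1 rose. With the GC correction, which called 21.5% of all genes tested, 10 fell and 1 rose, with a median of -0.11. With the 6 siARNT libraries alone edgeR called 0 (8 at an unadjusted p under 0.05). Without normoxia siARNT B 3 fell with a list median of -0.13, and without hypoxia siARNT C 2 fell with a list median of -0.293. PSAT1, an enzyme of serine synthesis, fell from 38, 34.4 and 37.3 CPM to 24.4, 24.1 and 21.3 CPM (-0.65, SE 0.08, adjusted p 0.00207), against -1.36 in siControl cells (interaction adjusted p 0.00432). ASNS, asparagine synthetase, fell from 160, 141 and 150 CPM to 112, 103 and 92.7 CPM (-0.55, SE 0.08, adjusted p 0.00453, -0.80 in siControl cells). SLC7A11, the cystine transporter, fell from 244, 194 and 270 CPM to 177, 161 and 159 CPM (-0.51, SE 0.10, adjusted p 0.0241, -0.42 in siControl cells). PSAT1 and ASNS stayed called without any 1 library, and SLC7A11 lost its call in 6 omissions (normoxia siControl C, normoxia siARNT A and C and hypoxia siARNT A, B and C, adjusted p up to 0.0927).

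Single members of other lists were called, and they are given as genes and not as results about the lists. Over all genes tested 4.09% were called. OCLN, a tight junction protein, rose (0.32, adjusted p 0.0225), DUSP6, a phosphatase of ERK, rose from 147, 152 and 155 CPM to 203, 201 and 208 CPM (0.43, SE 0.05, adjusted p 0.00168), and EDEM1, which helps clear misfolded glycoproteins, rose (0.28, adjusted p 0.0225). The histone demethylase KDM5B rose (0.31, adjusted p 0.0268) and the related ribosomal oxygenase RIOX2 fell (-0.35, adjusted p 0.0279), and with KDM3A they were 3 of 19 JmjC genes. In the cholesterol list HSD17B7 rose (0.34, adjusted p 0.0471) as 1 of 25, and in the lipid list PLIN2 and FABP5, a fatty acid binding protein, fell as 2 of 13 (-0.60 for FABP5, adjusted p 0.02). Among 18 NRF2 targets PGD, an enzyme of the pentose phosphate pathway, and SLC7A11 fell (-0.60 for PGD, adjusted p 0.0423).

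Among 25 interferon response genes OAS1 rose from 155, 177 and 154 CPM to 201, 197 and 199 CPM (0.30, adjusted p 0.0286) and IFI6 fell (-0.49, adjusted p 0.0395). The mitochondrially encoded MT-ND6 fell (-0.66, adjusted p 0.0176), 1 of 13, and ZEB2, a mesenchymal transcription factor, fell from under 0.8 CPM (-1.41, adjusted p 0.0159), 1 of 6. Of the genes called in these other lists, DUSP6 and KDM3A stayed called without any 1 library. HSD17B7 lost its call in all 12 omissions. EDEM1, OCLN, KDM5B, RIOX2, FABP5, PGD, SLC7A11, OAS1, IFI6, MT-ND6 and ZEB2 lost theirs in 4 to 10, and each of these lost it without each of normoxia siARNT A, hypoxia siARNT A and hypoxia siARNT B (adjusted p up to 0.165).

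The largest rises outside the HIF list, among non-pseudogenes of at least 5 CPM without overlap, were SNX25, a sorting nexin, the histone genes H2AC6 and H2BC5, KAT2B, a histone acetyltransferase, SLC22A23, OTULINL, YPEL2 and SCIN, an actin-severing protein. SNX25 rose from 11.3, 11.4 and 12.3 CPM to 22.5, 20.2 and 17.0 CPM (0.77, SE 0.10, adjusted p 0.00371), against 0.79 in siControl cells. KAT2B rose from 7.67, 7.15 and 8.59 CPM to 13.9, 12.8 and 11.9 CPM (0.72, SE 0.11, adjusted p 0.00715), against 0.63. SLC22A23, a transporter family member, rose from 10.5, 12.0 and 11.1 CPM to 18.7, 16.8 and 18.4 CPM (0.68, SE 0.08, adjusted p 0.00226), against 0.47. In these 3 the interaction was not called, with differences between arms of -0.02 (SE 0.14), 0.09 (SE 0.16) and 0.21 (SE 0.12). H2AC6, H2BC5 and SCIN rose by 0.75, 0.68 and 0.64 in siARNT cells and by 1.47, 1.69 and 1.84 in siControl cells, each with the interaction called. OTULINL (0.68) lost its call without normoxia siARNT A or C or hypoxia siARNT A (adjusted p up to 0.0689), and H2BC5 without normoxia siARNT A or C (adjusted p up to 0.057).

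The largest falls by the same rule included, beside MT2A and MT1E, FGFBP1, LINC00707, a gene listed as ENSG00000273151, HYI, COA7, GCAWKR, ARRDC4, PEAR1 and QPRT. FGFBP1, a carrier of fibroblast growth factors, fell from 57.6, 56.9 and 52.2 CPM to 28.4, 32.4 and 31.3 CPM (-0.86, SE 0.07, adjusted p 0.000175, -0.68 in siControl cells). COA7, an assembly factor of cytochrome c oxidase, fell from 28.3, 32.6 and 29 CPM to 17.8, 17.7 and 18.1 CPM (-0.75, SE 0.07, adjusted p 0.000578, -0.91 in siControl cells). Both stayed called under all 24 alternatives.

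ARRDC4, an arrestin-domain gene, fell from 15.8, 14.1 and 16.0 CPM to 9.64, 9.56 and 8.47 CPM (-0.73, SE 0.10, adjusted p 0.00385), and GCAWKR, a non-coding RNA, fell too (-0.73, adjusted p 0.0038). For both the siControl difference was near 0 (-0.01 and -0.13) and the interaction was called (adjusted p 0.0155 and 0.0303). PEAR1 lost its call without hypoxia siARNT B (adjusted p 0.0503). HYI, whose normoxia B value of 18.4 CPM stood above 12.5 and 11.6 CPM, lost its call in 11 of 12 omissions, all except hypoxia siARNT C (adjusted p up to 0.145).

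Among genes named for a called interaction, CTPS1, which makes CTP, fell by 0.35 in siARNT cells and by 1.29 in siControl cells (interaction 0.94, adjusted p 0.000103). LRRC8B, a volume-regulated channel subunit, fell by 0.45 and 1.28, and SLC25A15, the mitochondrial ornithine carrier, by 0.40 and 1.15. CLDN2, a pore-forming claudin, rose from 13.4, 16.5 and 14.5 CPM to 21.5, 23.2 and 23.7 CPM in siARNT cells (0.63, SE 0.09, adjusted p 0.0048), with -0.24 (adjusted p 0.0696) in siControl cells. SYTL2, a vesicle trafficking protein, rose by 0.57 (adjusted p 0.0255), with -0.27 (adjusted p 0.129) in siControl cells. PAG1, a membrane adaptor, rose by 0.45 (adjusted p 0.0423) against 2.03. CLDN2 stayed called for hypoxia in siARNT cells without any 1 library, and the other 5 lost that call without normoxia siARNT A and without hypoxia siARNT B, among others (adjusted p up to 0.133).

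Pseudogenes, copies of genes that mostly no longer encode protein, rose far more often than they fell. Of 1781 tested, 99 rose and 5 fell, and their median was 0.31 against -0.058 for the other 15218 genes. In siControl cells the medians were 0.099 and 0.014. Processed pseudogenes, which are reverse-transcribed copies of mRNA, held 91 of the rises, 6.97% of the 1306 tested, against 1.91% of 12584 protein-coding genes. Of the 99, 22 averaged 5 CPM or more and had groups without overlap. Of the 104 called, 93 were not called in siControl cells, 12 of them with a called interaction. Without hypoxia siARNT A, B or C the number of pseudogene rises was 6, 5 and 43, and without normoxia siARNT A, B or C it was 10, 24 and 10. It was 35, 31 and 37 without normoxia siControl A, B or C, 86 and 98 without hypoxia siControl A or B, and 185 without hypoxia siControl C, the library with the largest pseudogene share. With the transfected well as a block 7 pseudogenes rose and 2 fell, and with the 6 siARNT libraries alone 12 rose and 0 fell, so most of these calls were lost under both.

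Summed over all pseudogenes of the files, with no filter, their share of gene reads was 0.494, 0.469 and 0.481% in normoxia siARNT and 0.541, 0.543 and 0.534% in hypoxia siARNT. The groups did not overlap (two-sided exact permutation p 0.1, the smallest that 3 against 3 allows). In siControl cells the shares were 0.529, 0.543 and 0.534% in normoxia and 0.508, 0.522 and 0.589% in hypoxia (exact permutation p 1.0). The normoxia siARNT libraries were thus the lowest of all 12, and hypoxia siARNT lay within the siControl range. Reads that aligned to more than 1 place, which the counting left out, were 14.96, 14.75 and 14.75% in normoxia siARNT and 14.6, 14.45 and 14.52% in hypoxia siARNT. Their part in the result was not tested.

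Each pseudogene named after a gene was paired with that parent (1194 pairs, 625 parents). The median difference in siARNT cells was 0.38 for the pseudogenes and -0.07 for the parents, and 1016 of 1194 pseudogenes lay above their parent. Of the 85 pairs with a called pseudogene, 83 pseudogenes rose and 2 fell, with medians of 1.00 for the pseudogene and -0.02 for the parent. LDHA was the 1 parent called. Ribosomal protein parents made up 270 pairs, in which 26 pseudogenes and 0 parents rose. The mean log2 ratio of pseudogene to parent was also taken in each library from CPM, with 0.5 CPM added against low values. It was -7.645, -7.763 and -7.632 in normoxia siARNT and -7.375, -7.436 and -7.395 in hypoxia siARNT (exact permutation p 0.1, difference 0.278). In siControl cells it differed by 0.066 (exact permutation p 0.7).

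**Figure D5:**
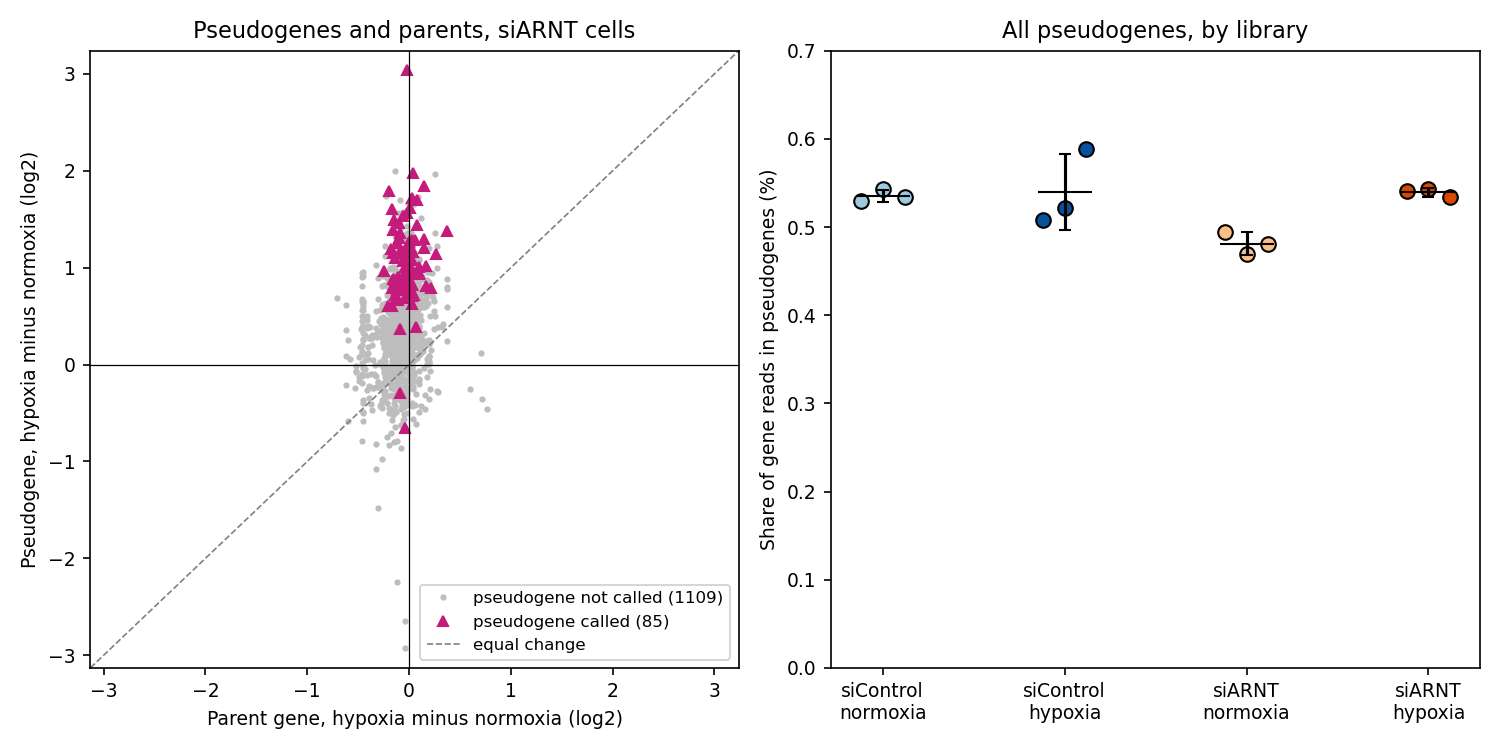
Left, difference between hypoxia and normoxia in siARNT cells (log2) of each pseudogene against its parent gene, with the 85 pairs whose pseudogene was called as triangles. Right, share of gene reads in all pseudogenes (%), 1 point per library with the mean and SD (n = 3), where normoxia siARNT lies below hypoxia siARNT without overlap.

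LDHAP4 and RPS27P3 are shown beside their parents to show how closely the copies resemble them. How reads were assigned between copy and parent was not tested. Over its whole length LDHAP4 matched LDHA at 95.6% of bases and RPS27P3 matched RPS27 at 99.6%, in GENCODE 29 transcripts. Each line gives the 100 bases within the parent's open reading frame that hold the most differences, 9 for LDHAP4 and 1 for RPS27P3, with the differing bases in capitals.
LDHAP4: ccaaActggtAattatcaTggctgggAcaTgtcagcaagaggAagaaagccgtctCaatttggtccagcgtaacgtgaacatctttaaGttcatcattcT
LDHA: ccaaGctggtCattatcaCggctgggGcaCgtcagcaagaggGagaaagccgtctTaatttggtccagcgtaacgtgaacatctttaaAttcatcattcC
RPS27P3: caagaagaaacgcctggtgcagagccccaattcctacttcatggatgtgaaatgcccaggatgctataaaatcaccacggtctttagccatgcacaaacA
RPS27: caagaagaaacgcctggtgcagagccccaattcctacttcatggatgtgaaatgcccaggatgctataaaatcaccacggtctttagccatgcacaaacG
None of the 874 stretches of 125 bases (the read length) in LDHAP4 occurred unchanged in an LDHA transcript, while 31 of 131 did for RPS27P3, 456 of 623 for RPL7P9, 47 of 292 for RPS24P19 and 0 of 1578 for HSPD1P4. Over the 85 pairs with a called pseudogene the median identity was 96.7%, and in 45 of them no stretch was found in the parent.

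LDHAP4 rose from 4.89, 4.03 and 4.55 CPM to 12.6, 10.3 and 12.1 CPM (1.38, SE 0.22, adjusted p 0.00756) in siARNT cells and by 1.61 in siControl cells, with LDHA rising in both. RPL7P9, a copy of a large ribosomal subunit gene, rose from 11.1, 9.16 and 10.1 CPM to 24.4, 24.1 and 19.2 CPM (1.16, SE 0.28, adjusted p 0.0457), and RPS27P3 from 6.36, 5.17 and 6.63 CPM to 12.9, 14.1 and 11.4 CPM (1.08, SE 0.20, adjusted p 0.0174). The rule that named these pseudogenes required groups without overlap. HSPD1P4, a copy of the chaperonin gene, and RPS24P19 rose by 1.00 and 0.99 (adjusted p 0.0418 and 0.0424). In siControl cells RPL7P9, RPS27P3, HSPD1P4 and RPS24P19 differed by 0.17, 0.31, -0.01 and 0.23 without a call, and the interaction was not called for any of the 5 (adjusted p 0.119 or more).

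LDHAP4 alone of the 5 stayed called without any 1 library. RPS27P3 lost its call without normoxia siARNT A or hypoxia siARNT A or B (adjusted p up to 0.0743), and RPL7P9, HSPD1P4 and RPS24P19 without 8 or 9 of the 12 libraries, among them each of the 6 siARNT libraries (adjusted p up to 0.137). The 1 fall that met the rule was MSL3P1 (-0.29, adjusted p 0.0434, -0.30 in siControl cells), which lost its call in all 12 omissions (adjusted p 0.0539 to 0.141). The cytosolic ribosomal protein lists had 0 calls by edgeR, DESeq2 or limma-voom among 45 large and 31 small subunit genes (1 and 0 at an unadjusted p under 0.05), with medians of -0.12 each.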

How the data were processed

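Poly(A) RNA of AsPC-1 cells was sequenced from stranded libraries as single-end reads on 3 lanes, per the labels' protocols, in 4 groups of 3 libraries named by siRNA, oxygen and replicate letter. The deposited files hold counts of reads per gene ID, and HTSeq, a read counter, appears in how they are named. The submitters' processing notes name Trimmomatic, STAR 2.4.2a and build GRCh38.p10, and the annotation and counter settings are not given in the sources used here. Summary lines without a gene were left out (22.71 to 25.2% of reads per library). Of 57820 gene IDs, 52338 were matched without their version to GENCODE 29, which gave gene types and GC content (99.41% of gene reads). Symbols came from a table of current gene names by ID, and from GENCODE 29 where that had none. The versions of the IDs are older than that annotation, so no gene coordinates were taken from it.

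The tests used edgeR 4.0.16 in R 4.3.3 on the deposited counts: TMM scaling, filterByExpr, robust quasi-likelihood fits over all 12 libraries with 1 mean per group, so that the siControl libraries help to estimate the spread, and Benjamini-Hochberg adjustment in each of 3 contrasts. Calls needed an adjusted p under 0.05. Standard errors came from the F statistic. CPM were TMM-scaled and are not corrected for gene length, so levels are not compared between genes. Alternatives were DESeq2 1.42.0, limma 3.58.1 (voom), other scaling and filters, the 6 siARNT libraries alone, replicate blocks, a smooth GC offset per library and each library left out. Values of single libraries were compared by exact permutation tests, two-sided. Reads carry no molecular identifiers, so counting intervals cover counting error only.

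A pseudogene is a gene whose GENCODE 29 type says so, and its parent is the tested protein-coding gene whose symbol remains without the final P and number. Promoters came from RefSeq (GRCh38.p14). Pseudogene transcripts were aligned to parent transcripts with edlib. Named genes were the HIF components, the 12 largest rises and falls among called non-pseudogenes with a mean of at least 5 CPM over the 6 libraries and no overlap, the 5 largest such pseudogene changes in each direction, every called HIF target, in each other list the called member with the smallest adjusted p in each direction, the 5 largest called interactions in each direction, and the 5 largest changes called in both arms. Other genes were named after their values were seen, among them further list members and the genes called in opposite directions. The comparison, the lists and the rules were chosen with earlier results of these data known. Splicing files of the study were not used, and 1 gene that met the rule is not reported here.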

Additional observations from a re-analysis of the deposited data

Results flagged for a closer look

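For the named genes listed here the change with oxygen differed between siARNT and siControl cells by the interaction test (edgeR, adjusted p under 0.05, of 797 genes called). The differences are given as the log2 change in siARNT minus that in siControl. Among HIF targets and oxygen sensors the rise was smaller in siARNT for EGLN3 (-2.57), NDRG1 (-2.32), ENO2 (-1.94), P4HA1 (-1.31), BNIP3L (-1.1), LDHA (-1.02) and KDM3A (-0.75). EGLN1 (-0.77) and CITED2 (-0.66) rose in siControl and were not called in siARNT. A smaller rise was also seen for PAG1 (-1.57), SCIN (-1.2), H2BC5 (-1.01), H2AC6 (-0.72) and OAS1 (-0.49).

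CYP1B1 (-1.58), PLIN2 (-1.26) and TNFAIP3 (-0.52) fell in siARNT and rose in siControl. ARRDC4 (-0.71) and GCAWKR (-0.6) fell in siARNT and were not called in siControl. A smaller fall in siARNT was found for CTPS1 (0.94), LRRC8B (0.82), SLC25A15 (0.75), PSAT1 (0.7) and GINS1 (0.38). CLDN2 (0.87) and SYTL2 (0.83) rose in siARNT and were not called in siControl. ANKRD37 and the metallothioneins were not among the genes with a called difference.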

How the results depend on the processing

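Among the 696 genes called for hypoxia in siARNT, none changed sign under any of the 24 alternatives. Of these genes 11 were called under every alternative that gave them a value, which for some was not all 24. The count was 22 with the 6 siARNT libraries alone, 446 without pseudogenes, 3657 with the GC offset and 3661 with the GC offset and the well as replicate block, and leaving out 1 library gave 129 to 707. The interaction gave 1495 genes with total count scaling, 373 with the well block, 3140 with the GC offset and 3185 with the GC offset and the well block, and 272 to 1188 without 1 library. Hypoxia calls in siControl also called in siARNT numbered 104 with the well block, 2436 with the GC offset and 2404 with both, and 101 to 429 without 1 library, against 431. Called list members numbered 67 with DESeq2, 6 with the 6 libraries alone, 22 with the well block, 148 with the GC offset, 157 with both, and 19 to 44 without 1 library, against 44. The mean difference between the edgeR log2 changes of pseudogenes and parents was 0.403 at a mean of at least 5 CPM (92 pairs), against 0.465. This is another measure than the 0.278 from library ratios, which were taken with 0.5 CPM added.

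With the transfected well as replicate block (normoxia and hypoxia of 1 letter within an siRNA) 136 genes were called, and with the letter alone 862. Whether the letters mark shared wells was not settled. Deviations from the group means (9855 genes) correlated at 0.908, -0.122 and -0.851 for A, B and C in siARNT and at 0.51, 0.744 and 0.495 in siControl. Across letters, normoxia B and hypoxia C of siARNT, the libraries set apart by GC, correlated at 0.928. These correlations cannot tell shared wells from a shared dependence on GC. A call lost under the block is thus read neither as a weaker effect nor as a fault of the block. With the well block all 8 called HIF targets and all 6 metallothioneins stayed called, against 2 of 5 AHR targets, 2 of 3 ATF4 targets, 1 of 6 DNA replication genes and 7 pseudogene rises in place of 99. With the 6 siARNT libraries alone 2 HIF targets and 4 metallothioneins were called.

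Depth limits low genes: with 38.53 to 84.34 M gene reads, members such as CYP1A1 and MT1A rest on 3 reads or fewer in each hypoxia siARNT library, and fold changes below 1 CPM are less firm than the others.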

Other observations

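Several lists had no called member for hypoxia in siARNT cells by edgeR at an adjusted p under 0.05. The lists are short, and genes of like function outside them were called, among them the clock factor NPAS2, the respiratory chain subunit UQCRQ (-0.23, adjusted p 0.0366) and the iron genes CYBRD1 (0.35, adjusted p 0.0428) and HEPH (0.41, adjusted p 0.0207), named after their values were seen. Of 26 nuclear-encoded respiratory chain genes, 0 were called by edgeR, DESeq2 or limma-voom, and 1 had an unadjusted p under 0.05. Their median was -0.10, against -0.25 with 17 falls in siControl cells. Of 17 clock genes, 0 were called by edgeR or limma-voom and 2 by DESeq2, 5 had an unadjusted p under 0.05, 4 of them above 0, and the median was 0.03 against 0.23 with 8 rises and 2 falls in siControl cells. Heat shock genes (13 tested, median -0.07), p53 targets (13, median -0.10) and iron handling genes (10, median 0.02) had 0 calls by edgeR, DESeq2 and limma-voom, and 2, 0 and 3 members at an unadjusted p. With the GC offset, which called 21.5% of all genes tested, 7 clock genes, 3 iron genes and 2 p53 targets rose. Under it 1 iron gene, 2 p53 targets and 4 respiratory chain genes fell.

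Among 10 tested matrix genes P4HA1 was the 1 that rose (list median -0.08 against 0.58 in siControl cells, where 7 rose), and among 12 mitophagy and autophagy genes BNIP3L was the 1 that rose (median -0.01 against 0.17). Immediate early genes had a median of -0.08 and 1 rise (DUSP6) among 20, against 0.33 with 9 rises and 2 falls in siControl cells. NF-kB targets had 1 fall (TNFAIP3) among 15, with a median of -0.17 against 0.12. Over all genes tested 2.21% rose and 1.89% fell in siARNT cells, and single calls are not read as results about these lists. Whether these medians differ between the arms was not tested.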
